A study of Mus musculus with 23 samples.

Results

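Oxytocin, vasopressin and cholecystokinin (CCK) form 3 peptide signalling systems whose peptide and receptor genes were examined in single neurons of the mouse arcuate hypothalamus. The 7 genes are Oxt, Avp and Cck, which encode the peptide precursors, and Oxtr, Avpr1a, Cckar and Cckbr, which encode receptors. They were chosen by symbol from the 23373 genes of the deposited expression table, with their values in these cells already known, so their levels are described here and not tested. The data are 23 single-cell RNA-seq libraries from GFP-positive cells of young adult males on a mixed background. All cells carried vGLUT2-IRES-Cre, which drives Cre from Slc17a6, the gene of the glutamate transporter VGLUT2, and loxSTOPlox-L10-GFP, a Cre-dependent GFP fused to the ribosomal protein L10. GFP therefore marks any cell that has expressed the Cre at some time, and no GFP-negative cell was analysed here. The labels name 2 mice and tie no cell to either, so the cells form a single group in which no animal can be compared with another. Cells carry the numbers 1 to 23, following their accession order as names only. Cells 16 to 23 have titles that begin with JCb6 and cells 1 to 15 have titles that begin with JCb5.2, and the labels do not explain the prefixes.

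Oxytocin and vasopressin are short peptides cut from precursors that also contain a carrier protein, neurophysin. They are made mainly by large (magnocellular) neurons of the paraventricular and supraoptic nuclei, which lie outside the arcuate nucleus, and vasopressin is also made in the suprachiasmatic nucleus. CCK is a gut hormone of satiety and a peptide of many brain neurons. Oxtr, Avpr1a, Cckar and Cckbr are G protein-coupled receptors that signal mainly through the Gq/11 proteins, phospholipase C beta and calcium. The arcuate nucleus holds neurons that sense hunger and satiety signals, among them those that make Pomc, from which the satiety peptide alpha-MSH is cut.

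Levels are FPKM, the authors' fragments per kilobase of transcript and 1000000 mapped fragments, and a gene was counted in a cell at or above 1 FPKM. A median of 7079 genes per cell reached that level, with a range from 4049 to 8025. Total reads are not in the table. The spacing of low values gave each library's relative depth, which differed by 4.21-fold between the deepest and the shallowest. For 6 of the 7 genes it also gave the number of fragments behind each value, taking the smallest shared step as 1 fragment. All 80 non-zero values of these 6 genes came out within 0.01 of a whole number. A step was accepted only if values of up to 300 fragments lay within 0.02 of one. For those values the closeness is therefore no independent check. Avpr1a was above 0 in 1 cell, so no step could be found. Fragments are amplified copies without molecular identifiers, and the intervals given for shares of cells cover counting error only. Low values of genes that were high in 1 or 2 cells recurred in other cells of the same prefix. Over 20 such genes in JCb6 and 13 in JCb5.2, the median of this shared low level was 0.0751 to 0.741% of the prefix's summed FPKM in JCb6 cells and 0.0414 to 0.689% in JCb5.2 cells. It was highest in cells 21, 12 and 14, and its part in the results was not tested.

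Each of the 7 genes reached 1 FPKM in at least 1 cell, as 63.6% of all genes did. In at least 3 cells 6 of the 7 did so, against 50% of all genes. In at least 5 cells 5 did (Cckar, Avp, Oxt, Oxtr and Cck), against 42.9%, and in at least 12 cells 2 did (Cckar and Avp), against 27.7%. In all 23 cells 0 of the 7 did, against 7.2% of all genes.

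Oxt, the oxytocin precursor gene, lies on chromosome 2 (mm10, 130576173 to 130576988, plus strand). Avp, the vasopressin precursor gene, follows at 130580677 to 130582541 on the minus strand, so the genes are transcribed toward each other with 3688 bp between the deposited loci. Cck lies on chromosome 9 (121489824 to 121495689, minus strand). The 250 bases before the start of each of these 3 genes, and of Oxtr, are shown because the 3 peptide genes were the members that separated the title prefixes without overlap, and Oxtr is the receptor of the Oxt product. The sequences are from RefSeq (GRCm38.p6), which holds windows for 6 of the 7 genes, and run 5′ to 3′ on the strand of the gene.

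Oxt chr2:130575919-130576168 (+): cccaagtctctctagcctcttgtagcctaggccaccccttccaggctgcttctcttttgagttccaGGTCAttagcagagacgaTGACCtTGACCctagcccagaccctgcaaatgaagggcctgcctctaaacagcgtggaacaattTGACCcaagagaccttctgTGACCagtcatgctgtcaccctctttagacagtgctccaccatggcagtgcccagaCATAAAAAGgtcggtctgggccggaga
Avp chr2:130582589-130582838 (-): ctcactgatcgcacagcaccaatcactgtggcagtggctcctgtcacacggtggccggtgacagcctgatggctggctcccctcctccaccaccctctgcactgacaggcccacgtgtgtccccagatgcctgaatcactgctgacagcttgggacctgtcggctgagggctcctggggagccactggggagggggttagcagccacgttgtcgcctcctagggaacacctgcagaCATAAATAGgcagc
Cck chr9:121495695-121495944 (-): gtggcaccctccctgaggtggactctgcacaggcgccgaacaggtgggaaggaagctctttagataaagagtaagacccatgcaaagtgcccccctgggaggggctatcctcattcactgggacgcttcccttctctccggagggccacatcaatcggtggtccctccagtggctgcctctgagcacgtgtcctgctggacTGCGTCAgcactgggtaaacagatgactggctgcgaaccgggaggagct
Oxtr chr6:112489826-112490075 (-): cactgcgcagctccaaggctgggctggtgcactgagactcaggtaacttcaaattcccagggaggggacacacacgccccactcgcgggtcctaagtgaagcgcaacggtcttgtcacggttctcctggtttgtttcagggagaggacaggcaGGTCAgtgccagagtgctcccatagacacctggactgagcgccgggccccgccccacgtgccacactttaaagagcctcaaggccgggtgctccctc

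Capitals in the Oxt and Oxtr windows mark TGACC on either strand (GGTCA on the other strand), the half-site that nuclear hormone receptors bind, and in Oxt and Avp also CATAAANAG, a TATA-like stretch. In the Cck window they mark TGCGTCA, which resembles the site bound by CREB. These motifs were chosen after the sequences were seen, were searched on both strands, and their matches do not overlap. TGACC occurred 5 times in the Oxt window, 1 time in that of Oxtr and 0 times in that of Avp, and 35.2% of 32851 RefSeq windows of this length hold it at least once. CATAAANAG occurred 1 time in each of the Oxt and Avp windows, against 0.852% of all windows. TGCGTCA occurred 1 time in the Cck window, against 1.75% of all windows. The Cckbr and Avpr1a windows held none of these 3 motifs. CANNTG, also searched but not marked, occurred 1 to 3 times in each of the 6 windows, and 66.2% of all windows hold it.

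Oxt transcripts were high in all 8 JCb6 cells. The level was 3014 FPKM for cell 21, 1432 for cell 17, 488 for cell 16, 397 for cell 20, 393 for cell 22, 357 for cell 18, 349 for cell 23 and 322 for cell 19. Among the 15 JCb5.2 cells, Oxt was at 30.8 FPKM for cell 5, 19.6 for cell 7, 11.7 for cell 10 and 0.842 for cell 12, and was listed at 0 in the other 11. The prefixes did not overlap, and the lowest JCb6 cell was 10.5 times the highest JCb5.2 cell. JCb6 cells held 99.1% of the Oxt FPKM summed over all cells. The values rest on 355 to 2910 fragments per cell in JCb6, and on 54, 28, 17 and 1 fragments in the JCb5.2 cells 5, 7, 10 and 12. The cells at 11.7 FPKM and above thus have more than a few fragments, while cell 12 has a single one.

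Avp was high in the same 8 cells. In JCb6 cells it was at 5186 FPKM for cell 21, 2550 for cell 17, 881 for cell 16, 705 for cell 22, 666 for cell 23, 654 for cell 18, 614 for cell 20 and 571 for cell 19. In JCb5.2 cells it was at 2.01 FPKM for cell 5, 1.51 for cell 9, 1.26 for cell 14 and 1.23 for cell 7, and was listed at 0 in the other 11. The lowest JCb6 cell was 283 times the highest JCb5.2 cell. Fragments numbered 724 to 5683 per cell in JCb6 and 1 to 4 in the 4 JCb5.2 cells, so the JCb5.2 counts of Avp cells rest on almost no reads. In cell 21 Avp was the 4th and Oxt the 9th most abundant gene, and in cell 17 they ranked 42nd and 93rd.

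The ratio of Avp to Oxt was nearly constant over JCb6 cells although the levels were not. Oxt differed by 9.35-fold and Avp by 9.09-fold between the highest and the lowest JCb6 cell. The FPKM ratio of Avp to Oxt lay between 1.55 (cell 20) and 1.91 (cell 23), with a mean of 1.77 ± 0.104 (SD, n = 8 cells). In the 2 JCb5.2 cells with both transcripts the ratio was 0.0653 (cell 5) and 0.0629 (cell 7). Oxt and Avp correlated across the 8 JCb6 cells with a Pearson r of 0.997 and a Spearman rho of 0.83 on the log2(FPKM + 1) scale, a description over cells that share a prefix and, in part, a mouse. Oxt and Avp have nearly identical middle exons, which encode the neurophysin core, and no source used here says how the authors' counting divided reads between them. The split between the genes is therefore uncertain.

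**Figure D1:**
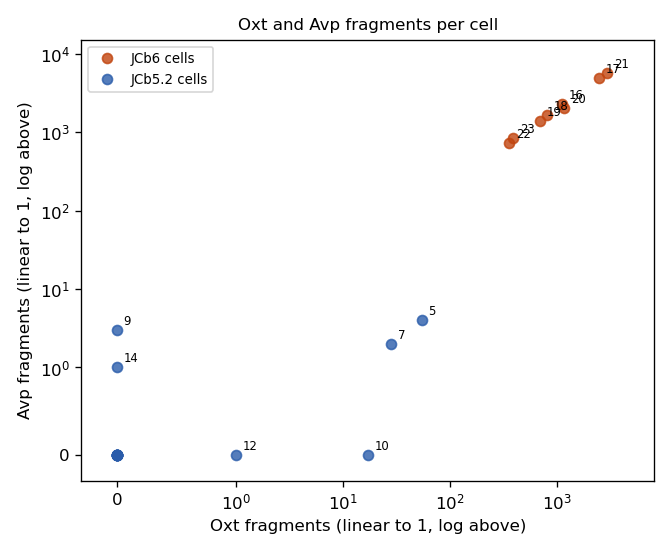
Whole fragments of Oxt (x axis) and Avp (y axis) in each cell, both axes linear to 1 and logarithmic above, with JCb6 cells in orange and JCb5.2 cells in blue and cell numbers beside the points. The 8 JCb6 cells run along 1 line from 355 to 2910 Oxt fragments, and cells 5 and 7 of JCb5.2 lie below that line at 54 and 28 Oxt fragments with 4 and 2 Avp fragments.

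Markers of the magnocellular and paraventricular neurons that normally make these peptides were set beside them. Of 13 such genes 6 reached 1 FPKM in a JCb6 cell and 10 in a JCb5.2 cell. The calcium-binding proteins Calb2 and Calb1 were in all 23 cells. Arnt2, a transcription factor of the paraventricular nucleus, was in 7 of 8 JCb6 cells and 7 of 15 JCb5.2 cells, and Caprin2, an RNA-binding protein, in 3 JCb6 and 4 JCb5.2 cells. Sim1 and Otp, transcription factors of the paraventricular lineage, were at most 0.0413 FPKM and at 0 in JCb6 cells. In JCb5.2 cells they reached 9.55 FPKM (cell 3) and 62.6 FPKM (cell 10). Otp passed in 2 cells, 10 and 15 (17.8 FPKM), those with the highest levels of the arcuate peptide genes Npy and Agrp. Npy was at 2539 and 2660 FPKM there, and Agrp at 39.7 and 433 FPKM. Pou3f2, also of the paraventricular lineage, was at most 0.0193 FPKM in JCb6 cells and at 0 in JCb5.2 cells. Without the calbindins, the summed level of the list ran from 0.520 to 44.7 FPKM (median 16.4) in JCb6 cells and from 1.94 to 64.4 FPKM (median 14.0) in JCb5.2 cells. The summed levels overlapped, as the levels of nearly all single genes did. Of 14874 genes at 1 FPKM in at least 1 cell, 0.101% were higher in every JCb6 cell and 0.0605% were lower in every one. The source of the Oxt and Avp transcripts was not tested.

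Genes of the suprachiasmatic nucleus, the pituitary, other hypothalamic peptide neurons and red blood cells were set beside them in the same way. Suprachiasmatic genes, 7 in all, summed to 0.212 to 18.4 FPKM (median 0.667) in JCb6 cells and to 0.396 to 100.5 FPKM (median 24.1) in JCb5.2 cells. Their most frequent members were Six6, a transcription factor in 3 JCb6 and 10 JCb5.2 cells, and Prok2, Rorb and Nms, which reached 1 FPKM in 8, 6 and 1 JCb5.2 cells and in 0 JCb6 cells. Grp, in 1 cell like Nms, ran the other way, at 3.78 FPKM in the JCb6 cell 21, the highest in Oxt and Avp, and listed at 0 in all JCb5.2 cells. Pituitary genes, 11 in all, summed to at most 0.573 FPKM in JCb6 cells and 2.25 FPKM in JCb5.2 cells, where Scn7a passed in 2 cells and Gh in 1, and Cga and Prl passed in none. Other hypothalamic peptides were rare: Penk passed in 2 JCb5.2 cells, Hcrt and Gnrh1 in 1 JCb6 and 1 JCb5.2 cell each, and Trh in 1 JCb5.2 cell. The haemoglobin genes of red blood cells (Hba-a2, Hbb-b2, Hba-a1 and Hbb-b1) summed to 44.2 to 2395 FPKM (median 258) in JCb6 cells and 3.45 to 622 FPKM (median 92.9) in JCb5.2 cells. Cells 21 and 17, highest in Oxt and Avp, also had the highest shared low level of the JCb6 cells, at 0.741 and 0.247%, and its part in the peptide levels was not tested.

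Cck was low and also separated the prefixes. In JCb6 cells it was at 8.59 FPKM for cell 18, 5.18 for cell 21, 3.94 for cell 17, 1.34 for cell 22, 1.24 for cell 23, 0.894 for cell 19, 0.646 for cell 20 and 0.454 for cell 16. In JCb5.2 cells it was at 0.146 FPKM for cell 8 and 0.119 for cell 10, and was listed at 0 in the other 13. These values rest on 112 fragments for cell 18, 39 for cell 17, 29 for cell 21 and 6 to 11 in the other JCb6 cells, and on 1 fragment each in the 2 JCb5.2 cells. Cck reached 1 FPKM in 5 of 8 JCb6 cells, 62.5% (exact Clopper-Pearson 95% interval 24.5 to 91.5%). In JCb5.2 it did so in 0 of 15, a count that allows a share of up to 20%. The lowest JCb6 cell was 3.11 times the highest JCb5.2 cell. Cell 18 led in Cck but was 6th of the 8 JCb6 cells in Oxt, so the order of Cck differed from that of Oxt and Avp, with a Spearman rho of 0.17 against Oxt over the 8 cells.

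**Figure D2:**
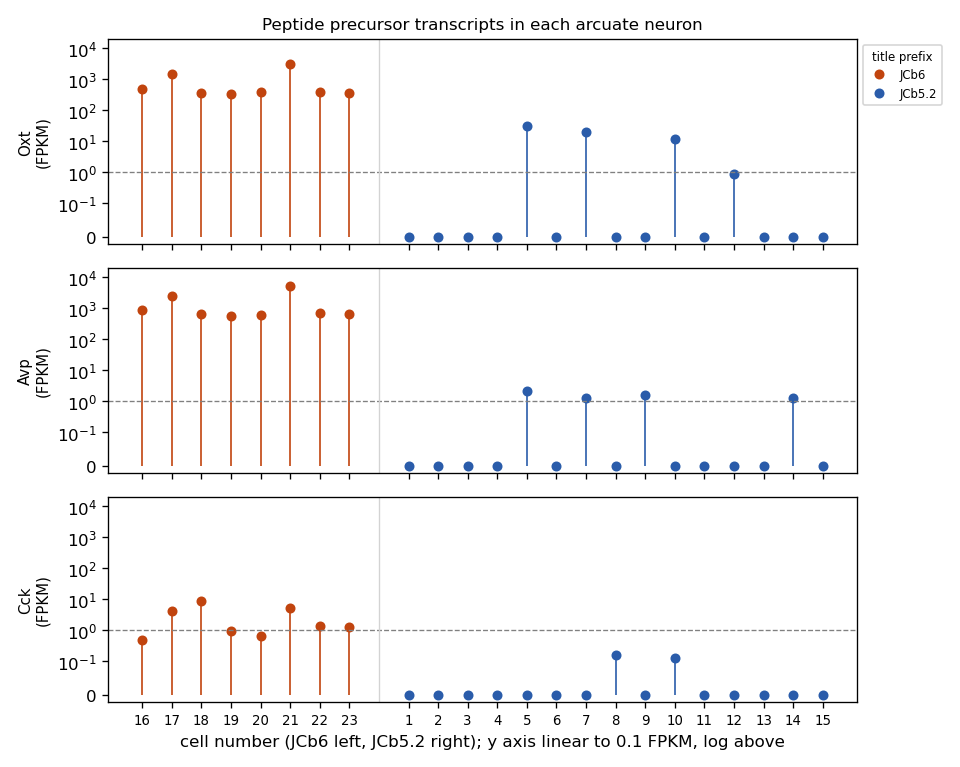
FPKM of Oxt, Avp and Cck in each cell, with JCb6 cells (orange) on the left and JCb5.2 cells (blue) on the right, y axis linear to 0.1 FPKM and logarithmic above, and a dashed line at 1 FPKM. All 8 JCb6 cells stand above all 15 JCb5.2 cells for each gene, with the narrowest gap for Cck, 0.454 FPKM in cell 16 of JCb6 against 0.146 FPKM in cell 8 of JCb5.2.

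Such a separation was rare in the table. Of 14874 genes at 1 FPKM in at least 1 cell, 15 (0.101%) were higher in every JCb6 cell than in every JCb5.2 cell, and 3 of the 7 members were among them. The reverse, every JCb6 cell lower, held for 9 genes (0.0605%) and 0 members. The other 12, named after their values were seen, included Th (tyrosine hydroxylase, the first enzyme of dopamine synthesis), at 0.324 to 9.08 FPKM in JCb6 cells and listed at 0 in JCb5.2 cells. Across JCb6 cells Th correlated with Oxt at a Pearson r of 0.98 and a Spearman rho of 0.60 (n = 8 cells). Mean log2(FPKM + 1), JCb6 minus JCb5.2, was 9.66 for Avp and 8.26 for Oxt, the highest and the next of all 14874 genes, and 1.57 for Cck, which was 175th. The median over all these genes was -0.10.

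Genes that process and release peptides were widely but not uniformly present. All 15 genes of that list reached 1 FPKM in at least 1 cell, 12 in at least 12 cells and 8 in all 23 cells, against 63.6, 27.7 and 7.2% of all genes. Pcsk1n (an inhibitor of prohormone convertase 1), Scg2 (a granin of dense-core vesicles), Cpe (carboxypeptidase E, which trims cut peptides) and Sec11c (a subunit of the signal peptidase) passed in every cell, with medians of 1052, 299, 397 and 226 FPKM. The prohormone convertase genes, whose products cut precursors, were in fewer cells: Pcsk2 in 7 of 8 JCb6 and 12 of 15 JCb5.2 cells, Pcsk1 in 6 JCb6 and 12 JCb5.2 cells, and Pcsk5 in 1 JCb6 and 6 JCb5.2 cells. Cadps and Cadps2, which prime dense-core vesicles for release, passed in 18 and 5 of the 23 cells. The list summed to 1703 to 2999 FPKM in JCb6 cells and 2015 to 3721 FPKM in JCb5.2 cells, ranges that overlap. Lnpep, the gene of a peptidase that cleaves oxytocin and vasopressin, passed in 6 of 8 JCb6 cells and 7 of 15 JCb5.2 cells, up to 20.3 FPKM in cell 8. Trpm2, a calcium-permeable channel gene, passed in 9 cells, and Prep, a peptidase gene, in 4. Cd38, which is needed for oxytocin release in mice, was at most 0.0670 FPKM.

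Oxtr encodes the oxytocin receptor and lies on chromosome 6 (112473684 to 112489808, minus strand). It was at 1 FPKM or above in 5 of 23 cells, all of prefix JCb5.2. In JCb6 it was listed at 0 in all 8 cells, a count that allows a share of up to 37.5%. The 5 levels rest on 646 fragments for cell 13 (22.8 FPKM), 460 for cell 6 (12.2 FPKM), 179 for cell 7 (7.67 FPKM), 178 for cell 4 (7.46 FPKM) and 178 for cell 2 (6.09 FPKM). The other 10 JCb5.2 cells had 0 to 7 fragments, between 0 (cell 15) and 0.360 FPKM (cell 12). A wide gap thus separated the lowest receptor-positive cell, at 6.09 FPKM, from the highest of the rest. Even for cell 13 Oxtr was far from the abundant genes, ranking 2697th by FPKM, and for cell 6 it ranked 3996th.

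Avpr1a, the V1a vasopressin receptor gene (chromosome 10, 122448499 to 122453453, plus strand), was at 17.3 FPKM in cell 3 of prefix JCb5.2 and listed at 0 in the other 22 cells. Its share was 4.35% of all cells (interval 0.110 to 21.9%). Cell 3 had no other member at 1 FPKM. It was also the cell with Sim1 (9.55 FPKM) and with the highest Prok2 (86.2 FPKM), a secreted clock-output protein. Pomc was at 922 FPKM there and Gad2, an enzyme of GABA synthesis, at 109 FPKM. Avpr1b and Avpr2, which encode the V1b and V2 vasopressin receptors, were listed at 0 in all 23 cells, which allows a share of up to 13.0%.

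Cckar, the CCK-A (CCK1) receptor gene (chromosome 5, 53698485 to 53707704, minus strand), was the most widespread receptor of the set. In JCb6 it was at 17.7 FPKM in cell 22, at 0.0430 to 0.115 FPKM in cells 16, 17 and 18, and listed at 0 in the other 4. In JCb5.2 the levels were 124.6 FPKM for cell 6, 68.1 for cell 13, 59.5 for cell 11, 28.7 for cell 2, 22.9 for cell 4, 19.2 for cell 5, 16.9 for cell 7, 8.05 for cell 15, 4.29 for cell 12, 3.55 for cell 1 and 1.83 for cell 14. Cells 8, 3, 9 and 10 had less, at 0.995, 0.426, 0.393 and 0.202 FPKM. The receptor was therefore above 0 in all 15 JCb5.2 cells and at 1 FPKM in 11 of them, 73.3% (interval 44.9 to 92.2%), against 1 of 8 JCb6 cells, 12.5% (0.316 to 52.7%). Cell 8, at 0.995 FPKM, lay just under the threshold and cell 14, at 1.83 FPKM, just above it.

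The Cckar values differed in the number of fragments behind them, which are amplified copies and do not count molecules. Cell 6 had 2925 fragments, cell 13 had 1205 and cell 11 had 834, and cells 2, 4, 5, 7 and 22 had 163 to 523. Cell 15 had 136 fragments, cell 1 had 79, cell 12 had 52 and cell 14 had 13. Cells 12 and 14 were also those with the highest shared low level in JCb5.2. Their Cckar was 1.19 and 0.507% of the gene's JCb5.2 sum, beside a shared low level of 0.689 and 0.489%. In cell 1 the same figures were 0.988 and 0.0853%. Without cells 12, 14 and 21, a choice made after the data were seen, Cckar was counted in 10 cells. When a value also had to reach 5% of the highest value in its prefix, likewise chosen afterwards, it was counted in 9.

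Mean log2(FPKM + 1) of Cckar was 0.57 in JCb6 cells and 3.23 in JCb5.2 cells, a difference of -2.66 that placed it 28th from the bottom of 14874 genes. For Oxtr the difference was -1.26, for Avpr1a -0.28 and for Cckbr -0.24. A difference of -1 or lower was found for 9.2% of genes and one of 1 or higher for 4.27%. The receptor genes Oxtr and Cckar were thus lower in JCb6, and the peptide genes Oxt, Avp and Cck higher there. Avpr1a and Cckbr ranked 9540th and 9146th from the top of the 14874 genes, whose median was -0.10. The difference of Avpr1a came from 1 cell.

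Cckbr, the CCK-B (CCK2) receptor gene (chromosome 7, 105425820 to 105436338, plus strand), was rarer. It was at 6.60 FPKM (51 fragments) for cell 22 of JCb6, and at 32.0 FPKM (477 fragments) for cell 9 and 4.20 FPKM (64 fragments) for cell 2 of JCb5.2. The other 20 cells had at most 0.408 FPKM, 8 fragments in cell 6. Of all cells 13.0% carried it (interval 2.78 to 33.6%). Cells 9 and 2 shared further transcripts: Mc4r, the melanocortin 4 receptor gene, at 20.04 and 50.001 FPKM, and Sst, the somatostatin gene, at 1342 and 903 FPKM. They had 51.3 and 25.5 FPKM of Pomc, low for these cells. Cell 22 had 1488 FPKM of Pomc, 0.343 FPKM of Mc4r and 0 of Sst. Sst was higher still in cells 14 and 15, at 4394 and 29792 FPKM, which were below 1 FPKM of Cckbr.

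**Figure D3:**
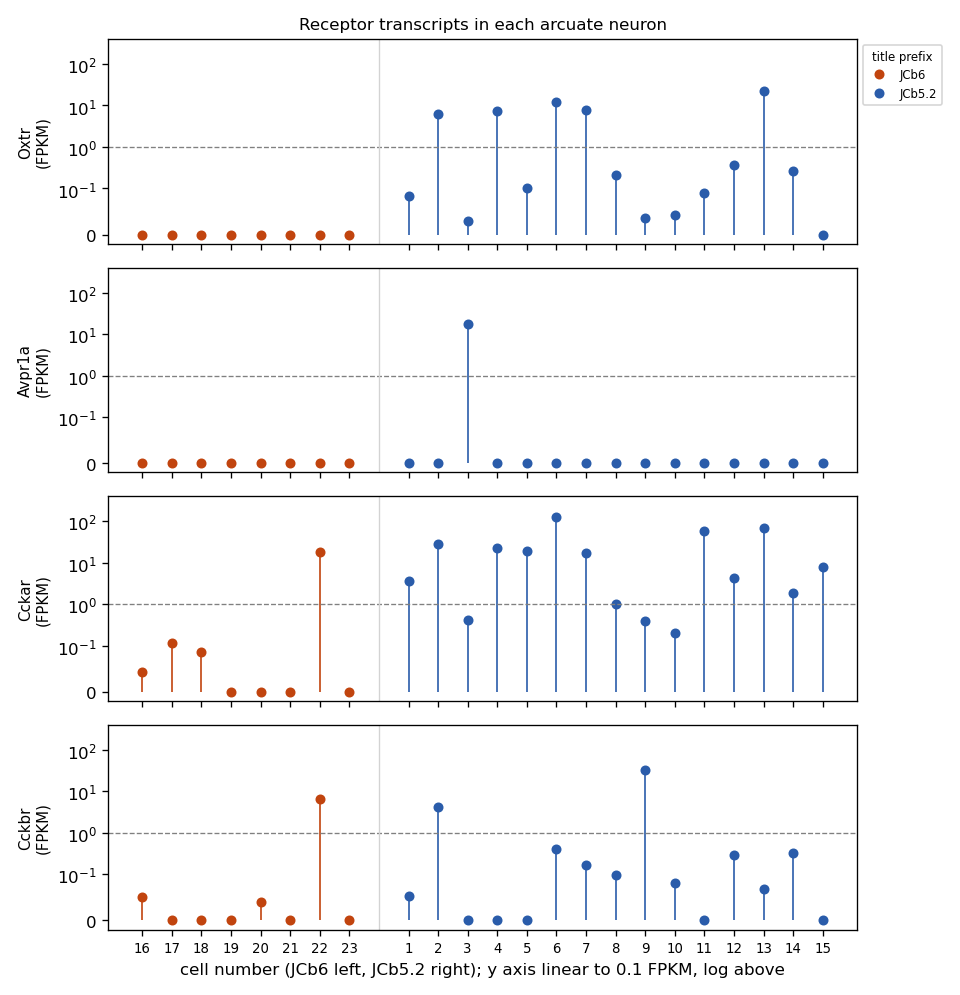
FPKM of Oxtr, Avpr1a, Cckar and Cckbr in each cell, with JCb6 cells (orange) on the left and JCb5.2 cells (blue) on the right, y axis linear to 0.1 FPKM and logarithmic above, and a dashed line at 1 FPKM. Cell 22 is the JCb6 cell with Cckar (17.7 FPKM) and Cckbr (6.60 FPKM), and Oxtr stands above the line in cells 2, 4, 6, 7 and 13 of JCb5.2.

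Signalling partners of the receptors were widely present. Of 25 Gq/11 pathway genes 22 passed 1 FPKM somewhere, 11 in at least 12 cells and 3 in all cells, against the same 63.6, 27.7 and 7.2% of all genes. Rgs4, which shortens Gq signals, had a median of 128 FPKM, the kinase gene Prkce 28.6 FPKM and Gnaq (the G alpha q subunit) 16.7 FPKM. Gna11 (G alpha 11) passed in 22 cells, up to 60.01 FPKM in cell 19. Gnaq passed in all 23 cells, and so in every cell with Oxtr, Cckar, Cckbr or Avpr1a, whatever the receptor. Gna11 ran from 24.9 to 37.8 FPKM in the Oxtr cells. A phospholipase C beta gene (Plcb1 to Plcb4) was found less widely, in 3 of 5 Oxtr cells and 8 of 12 Cckar cells, and in 12 of all 23 cells. The Avpr1a cell had none at that level.

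Each of the 5 Oxtr cells (2, 4, 6, 7 and 13) also carried Cckar. They were 100% of the Oxtr cells and 41.7% of the 12 Cckar cells. All 5 were JCb5.2 cells, and Cckar was counted in 11 of the 15 cells of that prefix, 73.3%. The 100% is to be read beside that share. The highest levels coincided, since cells 6 and 13 ranked first and next for Cckar and were also the highest pair for Oxtr. On the log2(FPKM + 1) scale Pearson r was 0.72 over the 23 cells and 0.72 over the 15 JCb5.2 cells alone, described across cells that differ in depth and may share a mouse. Cckbr overlapped less, with 1 Oxtr cell (cell 2) and 2 Cckar cells (2 and 22). Cell 2 was the cell with 3 receptors of the set.

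Peptides and their own receptors were counted together in few cells. Oxt and Oxtr were together in cell 7 (19.6 and 7.67 FPKM), which is 20% of Oxtr cells and 9.09% of Oxt cells. Avp and Avpr1a were together in 0 cells. Cck was together with Cckar and with Cckbr in cell 22, which is 8.33% of Cckar cells and 33.3% of the 3 Cckbr cells. It was together with Oxtr in 0 cells. Cell 22 of JCb6 held 5 of the 7 members, with Cckar, Cckbr, Cck, Oxt and Avp. Oxt and Avp were together in 10 cells, 90.9% of Oxt cells and 83.3% of Avp cells, and all 5 Cck cells were among them. Since both peptides were high in all JCb6 cells, these overlaps follow the prefix. Oxtr, Avpr1a and Cckar were counted only or mostly in JCb5.2 cells. Their small overlap with the peptides thus cannot be told apart from the prefix.

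Receptor cells were then set against Pomc, which was above 0 in all cells and at or above 100 FPKM in 14. Of the 5 Oxtr cells 4 had Pomc above that level, with 4663 FPKM for cell 6, 3815 for cell 13, 3214 for cell 4 and 412 for cell 7, while cell 2 had 25.5 FPKM. A Pomc level of 1000 FPKM or more was found in 8 cells, of which 3 carried Oxtr and 7 carried Cckar at 1 FPKM. At 10 FPKM, Cckar was in 6 of these 8 cells and in 2 of the 15 others. Cell 21, with 1664 FPKM of Pomc, was listed at 0 for Cckar, and cell 12, with the highest Pomc (9534 FPKM), had 4.29 FPKM of it. Over the 23 cells Cckar and Pomc correlated with a Pearson r of 0.54 and Oxtr and Pomc with 0.38. Over the 15 JCb5.2 cells the values were 0.47 and 0.36.

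**Figure D4:**
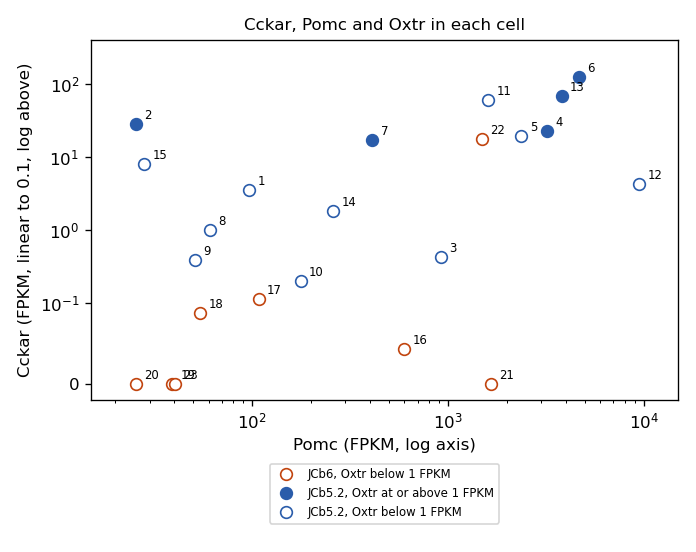
Cckar (y axis, FPKM, linear to 0.1 and logarithmic above) against Pomc (x axis, FPKM, logarithmic) in each cell, orange for JCb6 and blue for JCb5.2, filled where Oxtr was at or above 1 FPKM. All 5 filled cells have Cckar above 16 FPKM, and 4 of them lie to the right of 100 FPKM of Pomc.

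Receptor-positive cells were not uniform in their other transmitter and peptide genes. The Oxtr cells 4, 6 and 13 had 15794 to 32793 FPKM of Cartpt, the gene of the CART peptide of Pomc neurons. Cells 2 and 7 had 1793 and 317 FPKM of it. Pdyn, the dynorphin precursor gene, passed in all 23 cells and in the Oxtr cells lay between 4.82 (cell 7) and 179.7 FPKM (cell 13). Slc17a6, the gene that drove the Cre, was at 22.7 to 67.3 FPKM in the Oxtr cells. In cell 11, with 59.5 FPKM of Cckar, it was at 0.520 FPKM, the single cell under 1 FPKM. Gad2 was above 87 FPKM in the Oxtr cells 4, 6 and 13 and below 1 FPKM in cells 2 and 7, and Gad1 was high in cell 4 alone of the 5, at 97.2 FPKM. Slc32a1, the vesicular GABA transporter gene, was at 0 to 0.0592 FPKM in the Oxtr cells. Among the Cckar cells, cell 15 stood apart with 29792 FPKM of Sst, 2660 FPKM of Npy, 433 FPKM of Agrp and 15.3 FPKM of Slc32a1. Kiss1 and Tac2, which mark the kisspeptin neurons of the arcuate nucleus, were high in cells 8, 17, 19 and 20, at 978 FPKM or more. None of these cells had a receptor of the set at 1 FPKM. Cells 17, 19 and 20 are of prefix JCb6, where cell 22 alone had such a receptor. Cell 8, of JCb5.2, had 0.995 FPKM of Cckar, just under the threshold. The absence thus cannot be told apart from the prefix and the threshold.

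All 10 pan-neuronal genes passed in at least 1 cell, 8 in at least 12 cells and 6 in every cell, against 63.6, 27.7 and 7.2% of all genes. Among the 6 were Uchl1, Snhg11, Stmn2 and Meg3. Map2 passed in 20 cells, Syt1 in 8 (median 0.341 FPKM) and Rbfox3 in 5 (median 0.346 FPKM). Their list summed to 1558 to 2465 FPKM in JCb6 cells and 1101 to 4333 FPKM in JCb5.2 cells. Of 7 astrocyte genes 2 passed in at least 1 cell, against 63.6% of all genes. The astrocyte genes summed to at most 1.25 FPKM in JCb6 cells and 166 FPKM in JCb5.2 cells, where Gfap in cell 12 gave the highest sum. Of the oligodendrocyte genes, Mbp passed in 3 JCb6 and 7 JCb5.2 cells, up to 41.3 FPKM, Mag in 1 JCb6 and 4 JCb5.2 cells, up to 25.4 FPKM, and Cldn11 in 1 JCb6 and 2 JCb5.2 cells, up to 27.5 FPKM. The highest sums in JCb6 cells were 2.74 FPKM for microglial, 18.4 for endothelial, 4.54 for mural and 53.9 for tanycyte genes. In JCb5.2 cells they were 8.86 FPKM for microglial, 9.16 for endothelial, 1.91 for mural and 258 for tanycyte genes. The highest tanycyte sum, mostly Vim, was in cell 12, one of the lower Cckar cells at 4.29 FPKM. The sums given here overlapped between the prefixes, as the levels of nearly all single genes did.

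Genes whose levels ran most like each member were found by Pearson r of log2(FPKM + 1) among genes at 10 FPKM in at least 3 cells. Over 23 cells and 7438 candidates, Oxtr was closest to Prdm12, a transcription factor gene needed for Pomc neurons in mice, with r of 0.79, then to Yipf6 (0.77) and Plp2 (0.77). Prdm12 was at 46.8 FPKM for cell 7, 29.0 for cell 4, 18.7 for cell 13 and 14.3 for cell 6, 4 of the 5 Oxtr cells, and at 0 for cell 2. Over the 15 JCb5.2 cells Gt(ROSA)26Sor led (0.82), before Prdm12 (0.81) and the potassium channel gene Kcnk10 (0.78). Cckar was closest to Mgll, which encodes the enzyme that breaks down the endocannabinoid 2-AG (0.81), Ppap2c (0.79) and Ntsr1, a neurotensin receptor gene (0.78). Within JCb5.2 it was closest to Luzp2 (0.81), Hn1l (0.80) and Dear1 (0.79). Cckbr was closest to Acbd7 (0.93), A330102I10Rik (0.80) and Tmem69 (0.79), with 3 cells carrying most of the pattern.

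For the peptides the closest genes depended on the prefix. Over all cells Oxt was closest to Avp (0.96), Cryl1 (0.69) and Wdr92 (0.66), and Avp to Oxt, Cryl1 (0.73) and the calcium channel gene Cacna1g (0.71). Cck was closest to Avp (0.83), Oxt (0.80) and Zswim3 (0.75). Within the 8 JCb6 cells, Gm1821 and the ubiquitin gene Ubb followed, at 0.91 and 0.90 for Oxt and at 0.92 and 0.89 for Avp, and Cck was closest to the clock gene Cry2 (0.90), Lrp10 (0.88) and Nipsnap3b (0.81). Within the 15 JCb5.2 cells, where few cells had either peptide, Oxt was closest to Pcdhb12 (0.96), Sfrp4 (0.93) and Id1 (0.85), and Avp to Rasal1 (0.86), Tmem179b (0.83) and Cpne5 (0.79). Avp in JCb5.2 rests on 1 to 4 fragments in 4 cells, at most 2.01 FPKM, so its closest genes there rest on almost no reads. The other r values also describe few cells, and their order of genes rests on small numbers of cells with high values.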

How the data were processed

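Per the labels' protocols, RNA of single arcuate neurons was amplified by SmartSeq2 and sequenced after library preparation with NuGen's Ovation Rapid kit. CASAVA 1.8, TopHat, Cufflinks and mm10 are named in the submitters' processing notes. Which annotation, filters and versions of these tools were used is not given in the sources used here. FPKM per gene and cell were deposited by the authors as 1 table. Of 23896 rows, 12 held spreadsheet summaries with no gene, 286 were identical copies and 27 had names turned into dates, and all were left out. Rows of 124 symbols were summed, which gave 23373 genes, and each member had 1 row. Because the summary rows hold negative values, the unit of the table was recorded as another unit than FPKM; the 23373 genes have 0 negative values.

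Cells were counted at 1 FPKM, with exact Clopper-Pearson 95% intervals. Where no cell was counted, the limit is 3 counts of the total. Relative depth was taken from the spacing of low values, with cell 12 as 1, and FPKM times relative depth, divided by a gene's step, gave fragments. The shared low level uses genes of at least 100 FPKM in their highest cell, with at most 2 cells at 10% of it, all in 1 prefix, and a locus of at least 500 bp. No test was made, since each sample is 1 cell and the labels tie no cell to a mouse. The members and the gene lists were chosen with earlier results of these data known. Named genes are the members and Pomc, up to 4 genes per list (those in the most cells), arcuate type and transmitter genes in cells that carry a member and, for each member counted in at least 3 cells, the 3 genes with the highest Pearson r over all cells and within a prefix. Candidates had 10 FPKM in at least 3 of the cells concerned and a locus of at least 300 bp. Sim1, Otp, Pou3f2, Nos1, Prph, Kcnmb4, Cd38, Avpr1b, Avpr2, Mc4r, Th and Tac2 were named besides, after their values were seen. So were Grp, Map2, Syt1, Rbfox3, Pcsk1, Pcsk2, Pcsk5, Cadps, Cadps2 and the Plcb genes. Of the oligodendrocyte list, 1 gene and the sums are not reported here. A gene with no known part in oxytocin release or breakdown stood in that list, so the list is given by single genes without a count. Locus coordinates are those of the deposited table counted from 1, and strands are from GENCODE. Scripts were tested on simulated data. The tools were pandas 2.3.3, numpy 2.4.6, scipy 1.17.1 and matplotlib 3.10.9 under Python 3.11.15.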

Additional observations from a re-analysis of the deposited data

How the results depend on the processing

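Of 97 alternative values, 72 were labelled as close to those reported, 25 moved and 0 changed sign. Most are counts of cells, which cannot change sign. The label of close was broad. It took in Cckar counts of 17 at 0.1 FPKM and 8 at 10 FPKM, against 12. It also took in an Avp count of 8 at 5 FPKM, against 12, and a Cck count of 7 after rescaling, against 5. At 0.1 FPKM, Oxtr was counted in 9 cells, Cckbr in 7 and Cck in 10, and Oxtr was counted together with Cckar in 9 cells, with Cck in 1 and with Pomc at 100 FPKM in 7. At 5 FPKM, Cck was counted in 2 cells. At 10 FPKM, Oxtr was counted in 2 cells, Cckbr in 1 and Cck in 0. In JCb6 alone, Oxtr and Avpr1a were counted in 0 cells each and Cckar and Cckbr in 1 each. In JCb5.2 alone, Oxt was counted in 3 cells, Avp in 4 and Cck in 0. With a pseudocount of 0.1, the differences of mean log2 values, JCb6 minus JCb5.2, were -2.87 for Oxtr, -4.81 for Cckar, 10.77 for Oxt, 12.27 for Avp and 4.06 for Cck, since low and zero values then weigh more. The gene most like Oxtr, Prdm12, had a Spearman rho of 0.36 and a Pearson r of 0.66 at that pseudocount, and that most like Cckbr, Acbd7, a rho of 0.65. The cause of the last 3 shifts was not tested. Avpr1a, counted in 1 cell, gave no such value. No paired analysis was possible because the labels give 1 group of cells and no test was made. Rescaling each cell to a sum of 1000000 changed no count by more than 1.5 times. Depth limits the counts: absolute read numbers are unknown, and a share of 0 in 8 JCb6 cells allows up to 37.5%.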
